A study of Mus musculus with 6 samples.

Results

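The MYC network of transcription factors was followed across 6 RNA-seq libraries of B16F10 cells, a pigmented mouse melanoma line of C57BL/6 origin. It comprised 9 genes chosen by name, Myc, Mycn, Max, Mxd1, Mxd3, Mxd4, Mnt, Mga and Mlx, out of 34981 genes in the table, and all 9 were found by matching Ensembl identifiers to GENCODE M21 symbols. Per the labels, 500 cells were plated in 50 µl of Matrigel at 7 mg/ml, a basement membrane gel, and the spheroids received either BMP2 at 100 ng/ml or PBS for 10 days, with 3 libraries per group. The experiment was repeated in 3 batches, each holding 1 library of either kind. No genotype, transgene or other agent is given for either group, and both come from 1 cell line, so the replicates are repeats of the culture and not separate animals.

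MYC, MYCN and their relatives are basic helix-loop-helix leucine zipper proteins that bind DNA only as dimers. MYC pairs with MAX to activate genes of ribosome production, nucleotide synthesis and the cell cycle. The MXD proteins, MNT and MGA compete with MYC for MAX, and their dimers mostly repress; MLX is a MAX-like partner that joins the glucose-sensing factors MLXIP and MLXIPL, and also MNT and some MXD proteins. MYC is a driver of growth in many tumours, melanoma included, while MXD proteins accumulate as cells leave the cycle. These dimers share a preferred site, the E-box CACGTG.

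The promoter stretches of 4 members are printed because the network's own preferred site occurs within them.
Max: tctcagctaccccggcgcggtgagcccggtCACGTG
Mlx: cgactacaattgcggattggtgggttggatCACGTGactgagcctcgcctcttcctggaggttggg
Mnt: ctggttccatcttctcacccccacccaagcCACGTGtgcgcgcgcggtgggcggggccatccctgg
Mxd4: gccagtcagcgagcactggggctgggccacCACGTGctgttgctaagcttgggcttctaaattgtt
Each holds 30 bases on either side of the E-box, except that the stretch of Max ends with the E-box, and runs 5′ to 3′ on the strand of its gene, and the capitals mark the E-box, which reads the same on both strands. The sequences are from RefSeq on GRCm38.p6, which gave a promoter of 300 bases (250 before and 50 after the start that RefSeq annotates) for 8 of the 9 members, all but Myc. The stretch of Max is chr12:76962246-76962281 on the minus strand, with an E-box that begins 3 bases before the start site and runs across it. That of Mlx is chr11:101087220-101087285 on the plus strand, 40 bases before the start. That of Mnt is chr11:74830771-74830836 on the plus strand, at 123 bases, and that of Mxd4 is chr5:34187894-34187959 on the minus strand, at 219 bases. In all, 4 of the 8 member promoters held CACGTG, against 7.15% of 32851 promoters in the table. Only the E-box of Mlx among these 8 promoters lay in the longer palindrome TCACGTGA, a form also read by MITF and its relatives, which 0.974% of all promoters held. A match in letters does not show that a factor binds there, and binding was not measured.

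Libraries held 27821900 to 36856500 estimated counts, and 3 counts in a library were worth 0.0749 to 0.103 CPM, where CPM is the count scaled to library size by TMM (trimmed mean of M-values). The PBS library of batch 1, PBS 1 from here on, stood apart on the first principal component at -79.7, against -16.8 to 55.5 for the others. That component also followed the batches within each group. For batches 1, 2 and 3 it was -79.7, -4.85 and 21.8 in PBS and -16.8, 24.1 and 55.5 in BMP2. Member values are also given from fits without PBS 1. Those fits have no batch block and keep the BMP2 library of batch 1, so the batches are then unequally shared between groups. All 8 melanocyte markers looked at were detected, at a summed 23800 to 26800 CPM in PBS and 29100 to 39700 CPM in BMP2. Each of the 8 was higher with BMP2 in all 3 batches, where 22.8% of all tested genes were. For 2 of the 8 the groups did not overlap, against 6.42% of all tested genes with BMP2 higher. Of the 8, 0 passed an adjusted p of 0.05 in the edgeR fits given below, without or with batch as a block. Summed markers of fibroblasts, endothelium, leukocytes and epithelium stayed at or under 8.98 CPM in every library. The epithelial sum covered only 3 of the 6 listed markers, without Krt5, Krt8 and Krt18. Cdh5, Tek and Adgre1 had 0 counts throughout. The leukocyte sum was 3.57 to 5.01 CPM in PBS and 2.07 to 3.15 CPM in BMP2, without overlap. The part of these marker differences in the results below was not tested. In such bulk RNA, fewer cells that express a gene and less RNA per cell cannot be told apart.

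Across the network, Myc and Mxd1 had lower levels in every BMP2 library than in any PBS library, and Mlx had higher levels in every BMP2 library. Max, Mxd3, Mxd4, Mnt and Mga overlapped between the groups, and Mycn was close to 0. Of the 8 tested members 0 passed over all genes with the quasi-likelihood test of edgeR at a Benjamini-Hochberg adjusted p of 0.05. That fit called 6 of 12929 genes (0.0464%), with 0.00773% of genes rising and 0.0387% falling. With batch as a block it called 0.735% of genes, 0.371% rising and 0.364% falling, and again 0 of the 8 members. At an unadjusted p under 0.05 the fit without the block held 3 of the 8 members (Myc, Mxd1 and Mlx), against 5.38% of all genes, and that with the block 4 (the same and Mxd4), against 17.0%. The Wald test of DESeq2 called Myc alone among the members, where it called 1.01% of all genes, 0.526% falling and 0.48% rising. With the block that test called Myc and Mxd4, where it called 5.05% of all genes, 3.19% falling and 1.86% rising.

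**Figure D1:**
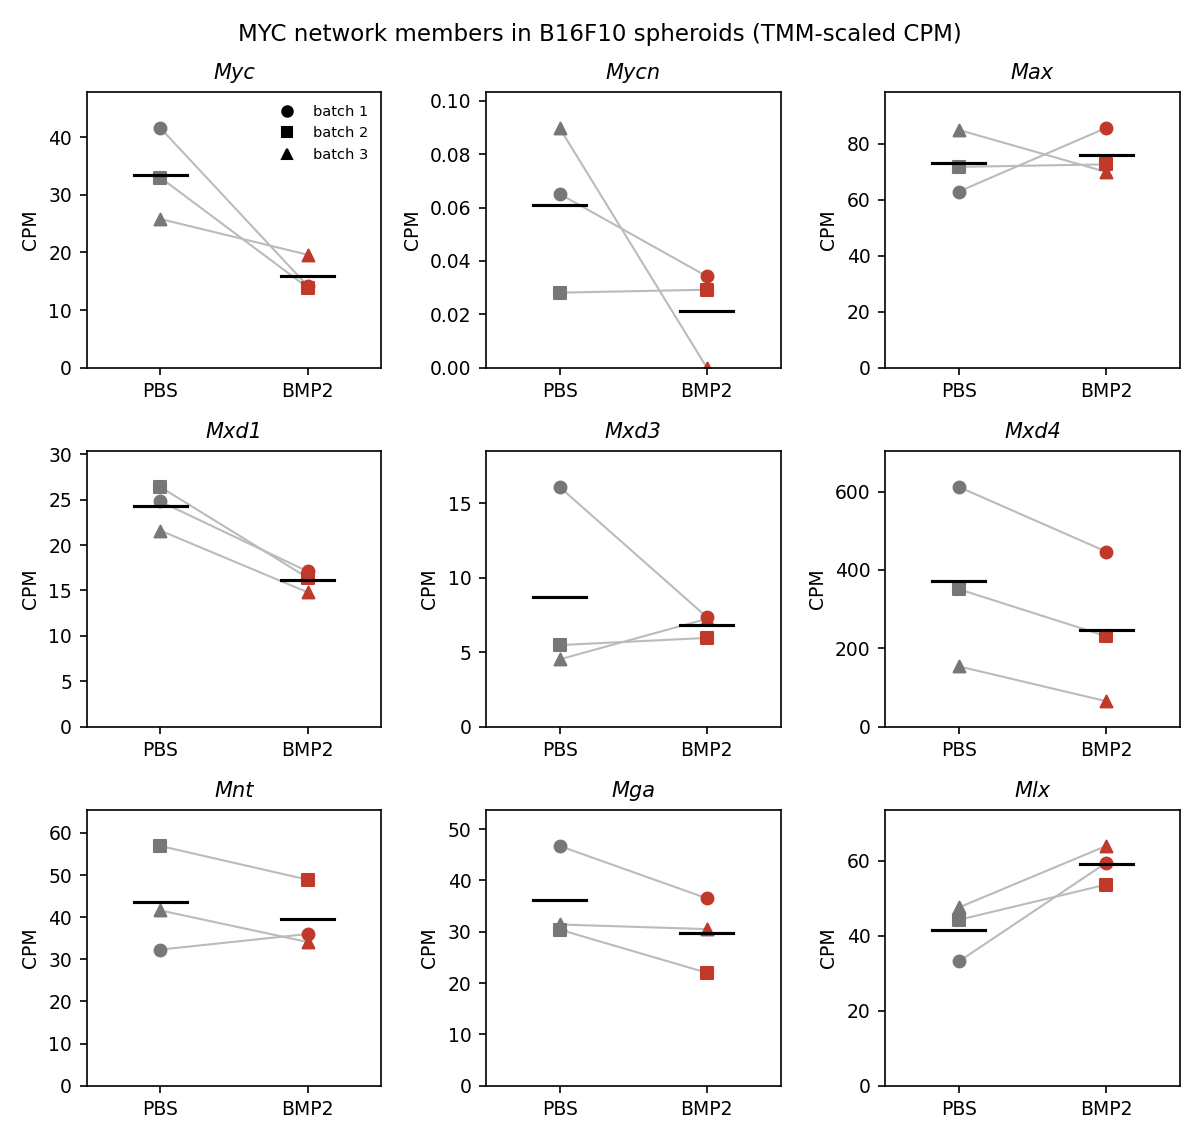
Levels of the 9 members in TMM-scaled CPM (vertical axes, each from 0) in PBS (grey) and BMP2 (red) libraries, with symbols for the batches, grey lines joining libraries of 1 batch and black bars at the group means (n = 3). Myc and Mxd1 lie lower and Mlx higher in all BMP2 libraries, while Mxd4 falls into 3 levels that follow the batches.

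Levels can be compared between genes only per length, so CPM was divided by the length in kilobases of the longest coding transcript of each gene. In PBS the order of these per-length levels was Mxd4 (96.1 ± 59.3), Max (37.7 ± 5.68), Mlx (21.2 ± 3.86), Myc (14.3 ± 3.4), Mnt (9.5 ± 2.71), Mxd3 (6.56 ± 4.84), Mxd1 (5.21 ± 0.523), Mga (2.6 ± 0.657) and Mycn (0.0228 ± 0.0116), as mean CPM per kilobase ± SD, n = 3. In BMP2 the order was Mxd4 (63.9 ± 49.5), Max (39.1 ± 4.34), Mlx (30 ± 2.62), Mnt (8.64 ± 1.76), Myc (6.81 ± 1.37), Mxd3 (5.16 ± 0.587), Mxd1 (3.45 ± 0.253), Mga (2.13 ± 0.523) and Mycn (0.00791 ± 0.00691). Myc thus stood above Mnt in the PBS means and below it in the BMP2 means. The libraries of these neighbours overlapped in both groups, with Myc at 11 to 17.8 and Mnt at 7.03 to 12.4 CPM per kilobase in PBS, and Myc at 5.96 to 8.38 and Mnt at 7.42 to 10.7 in BMP2. Max and Mlx did not overlap within either group. Mlx (16.8 to 24.2) and Myc overlapped in PBS but not in BMP2, where Mlx ran from 27.3 to 32.5. Further down the order, Mnt overlapped with Mxd3 and Mxd3 with Mxd1 in PBS, while in BMP2 Myc, Mxd3, Mxd1 and Mga each stood apart from the next. Mxd4 and Max overlapped in both, since Mxd4 ran from 39.8 to 158 in PBS and from 16.8 to 115 in BMP2. With all annotated exons as the length instead, Mlx came above Max in both groups, at 20.8 against 20.3 CPM per kilobase in PBS and 29.5 against 21.1 in BMP2. In BMP2 it then also came just above Mxd4, at 29.2, while in PBS Mxd4 kept the first place at 43.9.

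Myc, the activating subunit and the only MYC paralogue with appreciable expression, lies on chromosome 15 from 61985391 to 61990374 (ENSMUSG00000022346, GRCm38). Its levels were 41.6, 33.0 and 25.8 CPM in the PBS libraries of batches 1, 2 and 3, and 14.2, 13.9 and 19.6 CPM in the BMP2 libraries. The highest BMP2 library thus stayed below the lowest PBS library, and the gap was widest in batch 1 and narrowest in batch 3. The BMP2 mean of 15.9 ± 3.2 CPM was 47.6% of the PBS mean of 33.5 ± 7.94 CPM (SD, n = 3). On the log2 scale the fold change, BMP2 minus PBS, was -1.07 (SE 0.25, 95% interval -1.65 to -0.49), and -1.55, -1.24 and -0.39 within batches 1, 2 and 3. The edgeR adjusted p was 0.387 without the block and 0.125 with it, and lay at 0.0176 and 0.00134 in the Wald test of DESeq2 without and with the block. An exact two-sided permutation test of the 6 log2 levels, which ignored the batches, gave p = 0.1, the smallest that 3 against 3 libraries allow. Groups that do not overlap always give this value, and Mxd1 and Mlx had it too. Without PBS 1 the log2 fold change was -0.89 (edgeR adjusted p 0.554). None of the 31-mers of Myc, the unit kallisto matches by, occurred in another annotated gene.

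Mycn, the paralogue known from neuroblastoma and embryonic tissue (ENSMUSG00000037169, chromosome 12, 12936093 to 12941914), had 2, 1 and 3 estimated counts in the PBS libraries and 1, 1 and 0 in the BMP2 libraries. No library exceeded 3 counts, the gene did not reach the filter on low counts, and no difference was detectable at this depth. Mycl, the remaining paralogue, had 2 to 10 counts per library and was likewise not tested.

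Max, the partner shared by MYC, MXD, MNT and MGA (ENSMUSG00000059436, chromosome 12, 76937269 to 76962201), was at 62.9, 71.7 and 84.9 CPM in PBS and 85.6, 72.6 and 69.9 CPM in BMP2 for batches 1, 2 and 3. The groups covered nearly the same span and the batches disagreed in sign. Its log2 fold change was 0.055 (SE 0.19, 95% interval -0.38 to 0.49, edgeR adjusted p 0.965), and -0.049 without PBS 1. Changes of the size fitted for Myc lie outside this interval. The ratio of Myc to Max, per length, was 0.549, 0.382 and 0.252 in PBS and 0.138, 0.159 and 0.233 in BMP2. Every BMP2 library therefore held less Myc for each Max transcript than any PBS library, by a small margin in batch 3.

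Mxd1, a repressor that partners MAX in differentiating cells (ENSMUSG00000001156, chromosome 6, 86647042 to 86669161), was at 24.8, 26.4 and 21.6 CPM in PBS and 17.1, 16.4 and 14.8 CPM in BMP2. Its groups did not overlap, and the within-batch log2 differences were the most alike of the tested members at -0.53, -0.69 and -0.55. The log2 fold change was -0.59 (SE 0.19, 95% interval -1.04 to -0.15) with an edgeR adjusted p of 0.75, or 0.156 with the block. Without PBS 1 it was also -0.59. Among tested members, 2 (Myc and Mxd1) had non-overlapping groups with BMP2 lower and 1 (Mlx) with BMP2 higher, against 5.72% and 6.42% of all tested genes.
The ratio of Myc to Mxd1, per length, was 3.35, 2.49 and 2.38 in PBS and 1.66, 1.7 and 2.64 in BMP2. Myc and its antagonist Mxd1 were thus both lower with BMP2, and their ratio overlapped between the groups.

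Mxd4, an MXD repressor of resting and differentiating cells (ENSMUSG00000037235, chromosome 5, 34173883 to 34187720), had the highest group means per length of longest coding transcript, but in BMP2 came just below Mlx with all exons as the length. Its levels were 612, 351 and 154 CPM in the PBS libraries of batches 1, 2 and 3, and 447, 231 and 65.1 CPM in the BMP2 libraries. Batch 1 was highest and batch 3 lowest in either group, and the BMP2 library lay below the PBS library of its own batch each time. Means were 372 ± 230 CPM in PBS and 248 ± 192 CPM in BMP2, so the groups overlapped widely. The log2 fold change was -0.59 (SE 0.68, edgeR adjusted p 0.894) without the block and -0.76 (SE 0.18, adjusted p 0.142) with it. Within batches 1, 2 and 3 it was -0.45, -0.60 and -1.24. It was -0.037 without PBS 1, and -1.33 without BMP2 replicate 1, since either choice leaves the batches unequally shared between groups. With batch 1 left out of both groups and the block kept, it was -0.93 with an edgeR adjusted p of 0.0306. That fit had 1 residual degree of freedom and called 223 genes rising and 308 falling, against 48 and 47 with all batches. The Wald test of DESeq2 gave -0.78 at an adjusted p of 0.00247 with the block, and 0.924 without it. Mxd4 supplied 62.5%, 48.0% and 28.8% of the summed per-length level of the 9 members in PBS and 53.6%, 39.6% and 15.0% in BMP2. Other genes, Gm42846 most of all, hold 5.87% of the 31-mers of Mxd4, which leaves part of its reads uncertain.

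Mxd3, an MXD protein made in S phase (ENSMUSG00000021485, chromosome 13, 55325168 to 55329823), was at 16.1, 5.48 and 4.52 CPM in PBS and 7.36, 5.96 and 7.24 CPM in BMP2. PBS 1 alone lay above all other libraries, and the remaining PBS libraries lay below all 3 BMP2 libraries. The log2 fold change of -0.34 (SE 0.48, edgeR adjusted p 0.903) accordingly became 0.45 without PBS 1. Mxd3 overlaps Prelid1 on the other strand, a far more abundant gene at 363 to 642 CPM, and 3.99% of its 31-mers occur in other genes. Reads of the pair cannot be told apart where they overlap unless strand was used, and the sources used here do not say so.

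Mnt, the broadly expressed repressor that pairs with MAX or MLX (ENSMUSG00000000282, chromosome 11, 74830920 to 74845725), was at 32.3, 56.9 and 41.6 CPM in PBS and 36.0, 48.9 and 34.1 CPM in BMP2. Batch 2 was the highest in either group, and the BMP2 values lay within the PBS range. Its log2 fold change was -0.14 (SE 0.26, 95% interval -0.74 to 0.46, edgeR adjusted p 0.934), and -0.32 without PBS 1. Mga, a large protein that joins MAX in a Polycomb complex with PCGF6, L3MBTL2 and E2F6 (ENSMUSG00000033943, chromosome 2, 119897228 to 119969581), was at 46.7, 30.4 and 31.4 CPM in PBS and 36.5, 22 and 30.5 CPM in BMP2. It was lower with BMP2 in each batch, by only -0.042 on the log2 scale in batch 3. The log2 fold change of Mga was -0.29 (SE 0.27, 95% interval -0.90 to 0.33, edgeR adjusted p 0.884), and -0.066 without PBS 1. The ratio of Myc to Mnt, per length, was 2.53, 1.14 and 1.22 in PBS and 0.775, 0.559 and 1.13 in BMP2, which did not overlap, though PBS 2 and BMP2 3 nearly met.

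Mlx, the partner of the glucose sensors (ENSMUSG00000017801, chromosome 11, 101087277 to 101092207), was at 33.1, 44.2 and 47.5 CPM in PBS and 59.4, 53.6 and 63.9 CPM in BMP2. It was the single member with every BMP2 library above every PBS library, at a BMP2 mean of 142% of the PBS mean. For Mlx the log2 fold change was 0.50 (SE 0.20, 95% interval 0.037 to 0.97), with 0.84, 0.28 and 0.43 in batches 1, 2 and 3. Its edgeR adjusted p was 0.883 without the block, 0.195 with it and 0.915 without PBS 1, where the log2 fold change was 0.36. Mlx overlaps Psmc3ip on the other strand, and other genes hold 17.1% of its 31-mers, which leaves part of its reads uncertain. Psmc3ip itself was at 7.35, 3.46 and 4.1 CPM in PBS and 5.51, 5.46 and 6.99 CPM in BMP2, and these groups overlapped. The ratio of Mlx to Max, per length, was 0.519 to 0.609 in PBS and 0.686 to 0.904 in BMP2 without overlap. That of Mlx to Mnt was 2.39, 1.81 and 2.67 in PBS and 3.86, 2.56 and 4.38 in BMP2, which overlapped. The ratios of Myc to Mxd4 and of Mxd4 to Max overlapped between the groups too. The promoter stretch of Mlx printed above is the one with the palindrome TCACGTGA.

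**Figure D2:**
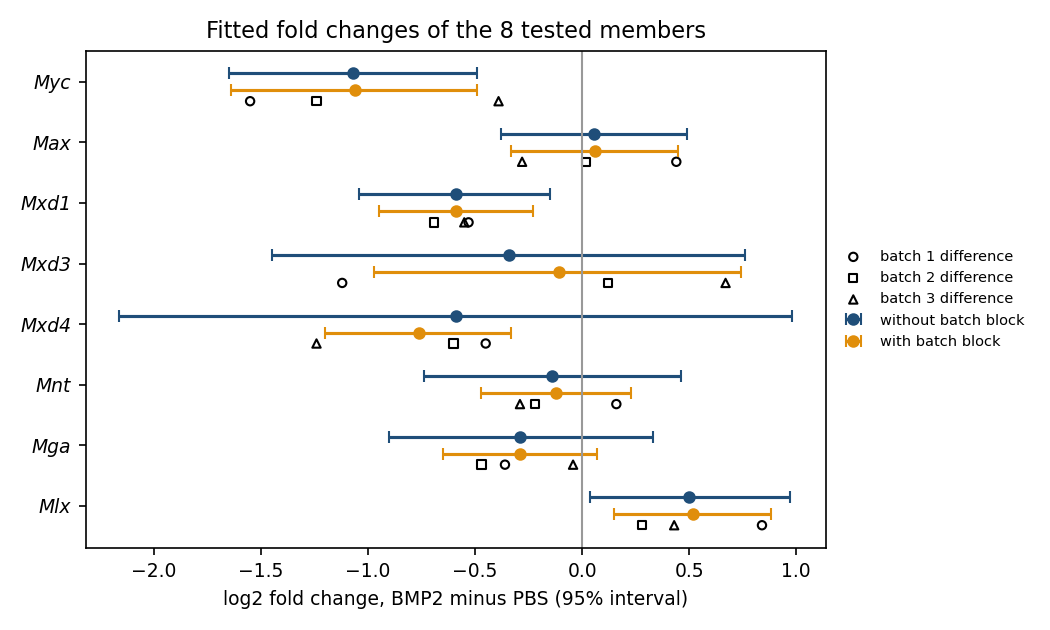
Log2 fold changes of the 8 tested members, BMP2 minus PBS (horizontal axis), as edgeR fitted them without (blue) and with (orange) batch as a block. Bars are 95% intervals for single genes, not adjusted for the number of genes, and open symbols are the differences within batches. The interval of Mxd4 runs from -2.16 to 0.98 without the block and from -1.20 to -0.33 with it, while those of Myc are -1.65 to -0.49 and -1.64 to -0.49.

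Over the 8 tested members the median log2 fold change was -0.32, against 0.010 over all tested genes, and medians within batches 1, 2 and 3 were -0.40, -0.34 and -0.28. Of these members, 4 (Myc, Mxd1, Mxd4 and Mga) were lower with BMP2 in all 3 batches and 1 (Mlx) was higher, where 21.1% and 22.8% of all genes were. The median was -0.20 with the block and -0.057 without PBS 1. With batch 1 left out of both groups and the block kept, it was -0.26. Myc took 7.04%, 7.48% and 7.98% of the summed per-length level of the network in PBS and 2.82%, 3.96% and 7.49% in BMP2, and the BMP2 library of batch 3 lay within the PBS range. Against the summed MAX-binding repressors (Mxd1, Mxd3, Mxd4, Mnt and Mga) the Myc level was 0.0959, 0.123 and 0.186 in PBS and 0.045, 0.0747 and 0.239 in BMP2. The sum is dominated by Mxd4, and batch 3 went the other way from batches 1 and 2.

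The genes around the network were taken from 8 lists of textbook roles, with 143 tested genes in all, and edgeR called 0 of them without or with the block. At an unadjusted p under 0.05 there was 1 such gene without the block (Gsk3b, a kinase that primes MYC for degradation, log2 fold change -0.48, named here after its values were seen) and 30 with it, where all genes had 5.38% and 17.0%. The DESeq2 Wald test called 0 without the block, and 1 rising and 6 falling with it, a share close to the 5.05% of all genes called in that fit. Among other network genes, Mxi1, a further MXD-type repressor, was at 125 ± 31.9 CPM in PBS and 108 ± 33.1 CPM in BMP2. Mlxip, the MLX partner also called MondoA, was at 33.8 ± 3.79 and 35.8 ± 6.41 CPM. Mlxipl, its liver-type relative ChREBP, had 0 to 8 counts per library and was not tested. Usf1 and Usf2, E-box factors outside the network, completed the 4 tested genes of that list. Their log2 fold changes were -0.53 and -0.28, against -0.22 for Mxi1 and 0.085 for Mlxip. The median of all 4, which thus rests in part on genes outside the network, was -0.25, or -0.059 without PBS 1. With batch 1 left out of both groups and the block kept, that median was -0.29.

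Cofactors of MYC and of its antagonists (20 tested genes) had a median log2 fold change of 0.051, and 5 were higher and 5 lower with BMP2 in all 3 batches, close to the shares of all genes (22.8% and 21.1%). Trrap, the scaffold that brings acetyltransferases to MYC, was at 61.7 ± 18.9 CPM in PBS and 66.6 ± 25.0 CPM in BMP2. Zbtb17, which encodes MIZ1, through which MYC represses genes, was at 31.8 ± 8.82 and 27.8 ± 5.96 CPM. The SIN3 corepressors that MXD proteins recruit were at 85.1 ± 13.0 and 63.2 ± 9.75 CPM for Sin3a and at 130 ± 21.3 and 114 ± 6.18 CPM for Sin3b. L3mbtl2, of the MGA complex, was singled out after its values were seen: its log2 fold change with the block was 0.65 (edgeR adjusted p 0.0807), and DESeq2 with the block called it rising at 0.0064. Of 15 tested genes for MYC protein turnover the median was -0.069. Fbxw7, the ubiquitin ligase subunit that marks MYC for destruction, was at 2.8, 7.39 and 10.8 CPM in PBS and 9.0, 9.9 and 12.6 CPM in BMP2. Its groups overlapped, with PBS 1 the lowest, and its edgeR adjusted p was 0.883. Skp2, another such ligase subunit, was at 14.6 ± 0.838 and 12.3 ± 1.68 CPM.

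Genes that MYC is known to activate were examined in 3 lists. The 34 tested nucleolar and ribosome-production genes had a median log2 fold change of 0.19, with 26 above 0 and 8 below. Over all 12929 tested genes, 6610 lay above 0 and 6319 below. Of these 34, 10 were higher and 2 lower with BMP2 in all 3 batches, where 22.8% and 21.1% of all genes were. The 2 were Ncl and Npm1, which encode the nucleolar proteins nucleolin and nucleophosmin. Ncl was at 582, 496 and 435 CPM in PBS and 326, 420 and 397 CPM in BMP2, with the groups apart, at a log2 fold change of -0.40 (SE 0.20, edgeR adjusted p 0.883). Npm1 was at 1600, 1130 and 1070 CPM and 1070, 819 and 943 CPM, and has processed pseudogenes with which kallisto can divide its reads. Nop56, a box C/D snoRNP protein gene, was at 86.9 ± 40.0 in PBS and 73.8 ± 26.4 CPM in BMP2. The nucleolar median was 0.14 without PBS 1, and -0.10 without BMP2 replicate 3. With the block kept, it was 0.14 with batch 1 left out of both groups and 0.011 with batch 3 left out.

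The 30 tested metabolic targets had a median log2 fold change of 0.046, with 6 higher and 5 lower in all 3 batches (22.8% and 21.1% of all genes). Odc1, the rate-limiting enzyme of polyamine synthesis and a classic MYC target, was at 250, 149 and 122 CPM in PBS and 232, 313 and 246 CPM in BMP2. It was about level in batch 1 and higher with BMP2 in batches 2 and 3 (log2 differences -0.11, 1.07 and 1.01), with an edgeR adjusted p of 0.883, or 0.263 with the block. Srm, the next enzyme of that pathway, was at 19.9 ± 6.33 and 20.6 ± 10.8 CPM. Cad, of pyrimidine synthesis, was at 25.4 ± 2.68 and 26.3 ± 14.2 CPM, and Ldha, lactate dehydrogenase A, at 3630 ± 312 and 3210 ± 489 CPM. The 18 tested cell cycle targets had a median of -0.055, with 3 higher and 2 lower in all batches (again beside 22.8% and 21.1%), and Cdk4 was at 226 ± 18.9 in PBS and 264 ± 52.6 CPM in BMP2.

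Genes that MYC is known to repress were mostly lower in the BMP2 libraries. Of 14 tested, 10 were lower in all 3 batches and 0 higher (21.1% and 22.8% of all genes), at a median log2 fold change of -0.58, or -0.37 without PBS 1. With batch 1 left out of both groups and the block kept, the median was -0.59. Cdkn1b, the cyclin-dependent kinase inhibitor p27, was at 843, 686 and 500 CPM in PBS and 570, 415 and 250 CPM in BMP2. It was highest in batch 1 and lowest in batch 3 in either group, like Mxd4, and lower with BMP2 in each batch, with a fitted change of -0.76 on the log2 scale (edgeR adjusted p 0.0846) under the block and -0.72 (0.883) without it. DESeq2 with the block called it falling at 0.000139. Cdkn1a, the inhibitor p21, was at 361 ± 112 and 303 ± 104 CPM, and Gadd45a, a growth-arrest gene, at 33.1 ± 13.7 and 28.3 ± 15.0 CPM. Cdkn2b, which encodes p15, had 0 counts in all 6 libraries, which allows up to 3 counts in each for counting error alone.

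Targets of the MLX arm likewise lay mostly lower with BMP2. Of 8 tested, 5 were lower in all 3 batches and 0 higher (21.1% and 22.8% of all genes), at a median log2 fold change of -0.27, or -0.038 without PBS 1. With batch 1 left out of both groups and the block kept, the median was -0.36. Txnip, the thioredoxin-interacting protein gene that MLX and MLXIP induce with glucose, was at 626, 340 and 248 CPM in PBS and 410, 237 and 83.3 CPM in BMP2. Arrdc4, an arrestin-domain gene under the same control, was at 28, 9.64 and 7.1 CPM in PBS and 14.8, 5.84 and 3.32 CPM in BMP2. Both were highest in batch 1 and lowest in batch 3 in either group, and lower with BMP2 within each batch. With the block their log2 fold changes were -0.90 and -0.91 (edgeR adjusted p 0.152 and 0.0984), and DESeq2 with the block called both falling at 0.00156 and 0.0065.

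**Figure D3:**
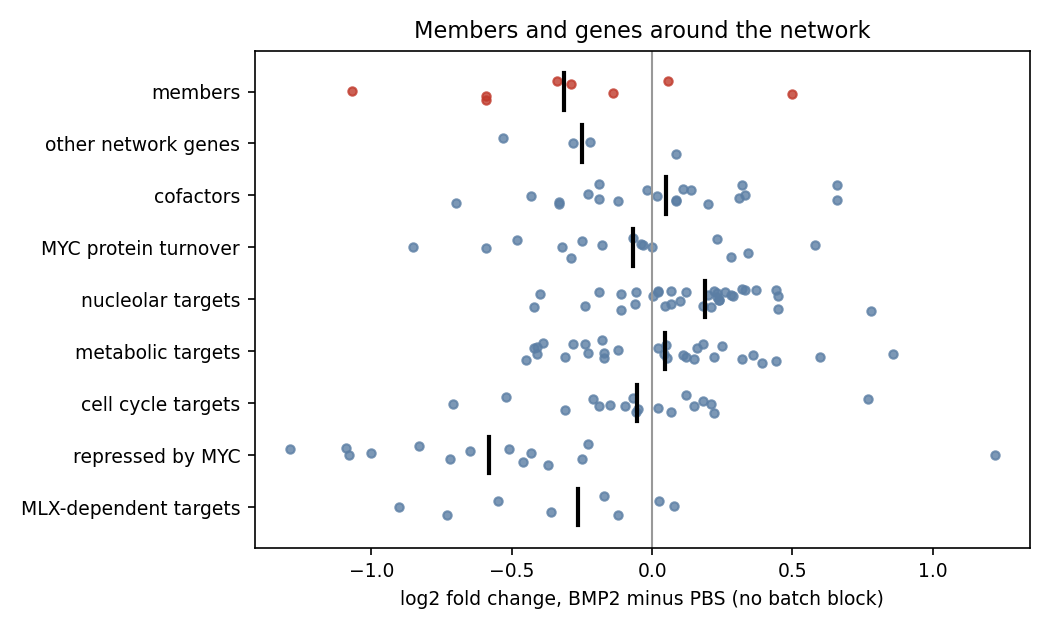
Log2 fold changes without the block (horizontal axis) of the tested members (red) and of the tested genes in 8 lists around the network (blue), 1 point per gene, with black bars at the medians. The median of the members is -0.32 and that of genes repressed by MYC -0.58, while the lists of genes activated by MYC have medians of 0.19, 0.046 and -0.055.

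**Figure D4:**
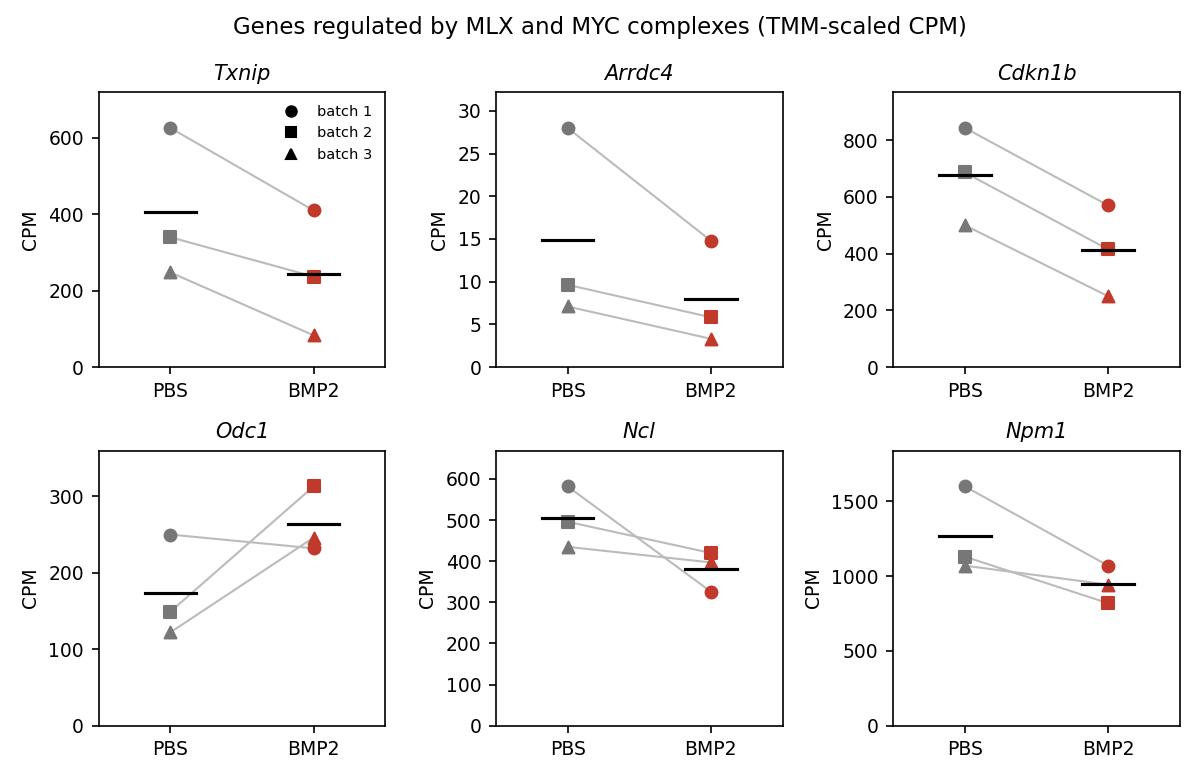
Levels of 6 target genes in TMM-scaled CPM (vertical axes, each from 0) in PBS (grey) and BMP2 (red), with symbols, lines and bars as in the plot of member levels. Txnip, Arrdc4 and Cdkn1b follow the batches and are lower with BMP2 within each, while Odc1 is slightly lower with BMP2 in batch 1 and higher in batches 2 and 3.

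The tested genes with the pattern most like Myc were ranked by Pearson correlation of log2 CPM over the 6 libraries. These were Mamld1 (r = 0.991), Gm8174 (0.984), Nedd8 (0.983), Rps26-ps1 (0.982) and Plekhh3 (0.98). Nedd8, a ubiquitin-like modifier that activates cullin ligases, was at 134, 121 and 105 CPM in PBS and 84.7, 88.9 and 93.5 CPM in BMP2. Mamld1 was at 15.0, 14 and 12.7 CPM and 8.63, 8.53 and 10.1 CPM. Plekhh3 was at 24.3, 21.4 and 20.3 CPM and 11.4, 10.5 and 14.6 CPM. The pseudogenes Gm8174 and Rps26-ps1 stayed under 1 CPM in each library, and Rps26-ps1 can take reads from its parent gene. Like Myc, Mamld1, Nedd8 and Plekhh3 had their widest gap between groups in batch 1 and their narrowest in batch 3. This likeness follows from the ranking that picked them. With 6 points that share libraries and scaling factors, 108 of 12928 genes had r above 0.9. Within the network, the correlation with Myc over the same libraries was 0.86 for Mxd1 and -0.85 for Mlx, and -0.54 for Max.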

How the data were processed

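Messenger RNA was measured in 6 libraries, 3 per group. The authors deposited estimated counts per gene, and the submitters' processing notes name kallisto 0.44.0 and build GRCm38.p6. The release of the annotation, the step from transcripts to genes and the strand setting were not found in the sources used here. Because kallisto shares out reads that fit more than 1 transcript, copies and overlapping genes can exchange reads. Of 34981 genes, 34679 matched GENCODE M21 by identifier. Columns named as controls were matched to the samples titled untreated, whose protocol names PBS. Bop1, Krt5, Krt8 and Krt18 of the lists were not analysed here.

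Counts were rounded, filtered with the default of edgeR 4.0.16 (R 4.3.3), scaled by the trimmed mean of M values (TMM) and tested by quasi-likelihood on treatment alone, with Benjamini-Hochberg adjustment over 12929 genes at 0.05. SEs were worked back from the F statistic, and log2 CPM used a prior count of 2. Alternatives were batch as a block, other filters and scalings, limma 3.58.1, DESeq2 1.42.0, and leaving out libraries or batches. The labels say that a number marks a shared batch, and deviations from group means correlated at 0.51, 0.25 and 0.52 within batches, so the numbers pair the samples. Shared 31-mers were counted on both strands of annotated transcripts with Python 3.11.15. Scripts were tested on simulated data. Limits from counts cover counting error only, as reads carry no molecular identifiers. The intervals of the log2 fold changes rest on the SEs from the F statistic, so they include the spread between libraries. The p-values measure the spread between 3 repeats of the experiment. Members and lists were chosen with earlier results of these data known. The text names all members, 24 list genes fixed as classic representatives, list genes past the threshold in either edgeR fit (0 were) and the 5 genes most like Myc.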

Additional observations from a re-analysis of the deposited data

How the results depend on the processing

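Of 128 member values under 16 alternatives, 117 kept their direction and side of the threshold, 5 passed it and 6 turned sign; the cause was not tested. Over all genes, 1 rose and 5 fell without the block. With the replicate block 48 rose and 47 fell, with no filter 19 and 16, with a mean of at least 100 counts 0 rose, and with quantile normalization and limma-trend 2 rose. The DESeq2 Wald test gave 62 and 68, and 241 and 412 with the replicate block. Without batches 1, 2 and 3, with the replicate block, 223, 9 and 115 rose and 308, 18 and 103 fell. Leaving out 1 library gave 0 to 5 rising and 2 to 5 falling. Among members, 1 fell in the DESeq2 Wald test, 2 with its replicate block, and 1 each without batch 1 (Mxd4) and batch 3 (Myc, log2 fold change -1.40, edgeR adjusted p 0.00315) with the replicate block. Among list genes, 1 rose and 6 fell in DESeq2 with the replicate block, 3 (Odc1, L3mbtl2, Slc7a5) and 3 (Cdkn1b, Btg2, Hk2) without batch 1, and 1 (Itgb3) and 1 (Btg2) without batch 3; Slc7a5, Hk2, Itgb3, Btg2 and L3mbtl2 are named after their values were seen. These calls of list genes stand beside 223 rising and 308 falling over all genes without batch 1, and 115 and 103 without batch 3. With all libraries, 143 list genes were tested among 12929 genes. The replicate block in edgeR over all batches changed no call of a member or list gene.

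Max turned to -0.038 without BMP2 replicate 1, -0.049 without PBS replicate 1 and -0.14 without batch 1, and reached 0.18 with 1 library left out and 0.23 without batch 3 with the replicate block. Mxd3 was -0.65 to 0.45 with 1 library left out and 0.39 without batch 1, and Mnt was -0.33 to 0.11. Myc kept its sign throughout, at -1.40 to -0.82, as did Mxd1 at -0.67 to -0.53 and Mlx at 0.34 to 0.64. With 3 libraries a group and 2 residual degrees of freedom under the block, or 1 without a batch, the spread is poorly known. Of 144 medians of the members and lists under alternatives, 22 moved by more than the SD of the 3 within-batch medians. Mycn and Mycl are limited by depth.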
